A study of Mus musculus with 3 samples.

Results

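The 37 genes of the mouse mitochondrial genome were examined in RNA sequencing libraries of T-helper 1 (Th1) cells, by the strand on which each gene is annotated and by RNA type. They were taken as every gene that the deposited tables place on chromosome M, 37 of 50600 genes. On the plus strand lie 28 of them, 12 mRNA genes, 2 rRNA genes and 14 tRNA genes, and on the minus strand 9, the mRNA gene mt-Nd6 and 8 tRNA genes. The samples were 3 libraries of a single group, labelled biological replicates 1, 2 and 3 of primary Th1 cells from strain C57BL/6NJ, with no second condition. Age and developmental stage are labelled unknown, the file headers carry 24 hr, and all 3 libraries have the same donor entry. The labels point to a protocol for differentiating CD4+ T cells and name no agent. The labels do not say whether separate animals or cultures were used, so the spread between libraries may be technical.

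The mitochondrial genome is a small circle that encodes subunits of the respiratory chain together with the rRNAs and tRNAs needed to translate them. Each strand is transcribed as a long precursor, and tRNAs that lie between the other genes are cut out of it, which frees the mRNAs and rRNAs. Most genes are read from the precursor that carries the plus-strand sequence, whose rRNAs and mRNAs are known as abundant stable RNAs. The precursor with the minus-strand sequence yields mt-Nd6 and a few tRNAs, and RNA antisense to genes is known to be removed largely by the mitochondrial degradosome. Activated T cells are known to increase mitochondrial translation and respiration.

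The sequences at the junctions where the strands meet show what was being compared. The genes mt-Tp, for the proline tRNA, and mt-Tt, for the threonine tRNA, are neighbours on opposite strands (mm10 chrM:15356-15422, minus, and chrM:15289-15355, plus), and mt-Te, for the glutamate tRNA, lies directly 5′ of mt-Nd6 on the minus strand (chrM:14071-14139). The glutamine tRNA gene mt-Tq (chrM:3772-3842) lies alone on the minus strand. The anticodon is in capitals and each sequence runs 5′ to 3′ on the strand of its gene.
mt-Tp: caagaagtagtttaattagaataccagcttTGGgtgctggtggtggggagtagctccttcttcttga
mt-Tt: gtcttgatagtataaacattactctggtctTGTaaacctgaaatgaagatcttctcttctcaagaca
mt-Te: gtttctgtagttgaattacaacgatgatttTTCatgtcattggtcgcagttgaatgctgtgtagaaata
mt-Tq: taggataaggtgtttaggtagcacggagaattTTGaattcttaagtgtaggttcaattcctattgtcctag

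The gene pair mt-Nd5 and mt-Nd6, which encode subunits of complex I, run towards each other and share only their last 14 bases. The last 60 bases of each gene are shown on its own strand, with the shared part in capitals (mt-Nd5, chrM:13506-13565, plus; mt-Nd6, chrM:13552-13611, minus).
mt-Nd5 end: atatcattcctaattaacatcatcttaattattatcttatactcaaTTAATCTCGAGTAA
mt-Nd6 end: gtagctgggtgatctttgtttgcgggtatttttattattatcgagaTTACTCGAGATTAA
Over the rest of its 519 bases mt-Nd6 has no annotated gene on the plus strand.

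Each value is the number of read pairs assigned to a gene on 1 strand, chosen by a strand option at counting, with no normalization. No library kit is named, so whether that option matched the libraries is unknown here and was not tested. RNA of a gene and RNA antisense to it therefore cannot be told apart in these counts. The 8183 nuclear genes with an exon that overlaps an exon on the opposite strand held a mean of 70.9% of all counts. The 27094 nuclear genes with no opposite-strand gene within 5000 bases held a mean of 12.2%. Every statement below is about pairs counted on the annotated strand. Total counts ran from 2945353 to 3553547 per library, and where no pair was counted a level of up to 3 counts remains possible, which is 0.844 to 1.02 CPM (counts per 1000000 counts in the library). As a check of the cell label, all 6 T cell markers were above 3 counts in every library. Of 8 Th1 markers 6 were above 3 counts in every library. Il2 had 825, 286 and 582 counts, Tnf 449, 207 and 328, Il12rb2 90, 105 and 114, and Stat4 52, 23 and 33. Il18r1 had 17, 4 and 6 counts and Tbx21 had 15, 11 and 8, while Ifng and Cxcr3 had 2 or fewer in each library. The natural killer, neutrophil and erythroid markers all had 0 counts, as had 2 of 4 B cell and 2 of 5 macrophage markers. Csf1r, of the macrophage list, and Foxp3, of the other T helper list, reached 1429, 1418 and 1460, and 900, 829 and 907 counts, and exons of both overlap an exon on the opposite strand. The part of other cells in the mitochondrial counts was not tested. Counts are given in the order of replicates 1, 2 and 3.

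Mitochondrial genes held 39809, 38030 and 47294 counts, or 1.27% ± 0.143 of all counts (SD, n = 3). The minus strand, with 6.9% of the exon bases, held 54.3%, 71.1% and 60.4% of these counts, and the exact binomial 95% intervals of the 3 libraries did not overlap (53.82 to 54.80, 70.66 to 71.58 and 59.96 to 60.84). Such intervals cover counting error only. Those of nuclear chromosomes 1, 3, 4, 5, 7, 11, 12, 14, 17, 19 and X did not overlap either. On the other nuclear chromosomes at least some of them overlapped. Per kb of exon, minus-strand genes had 20243, 25326 and 26748 counts and plus-strand genes 1266, 764 and 1303. The minus strand was thus 15.99, 33.15 and 20.53 times as high, higher in 3 of 3 libraries (exact two-sided sign-flip permutation test over libraries, p = 0.25, the smallest that 3 libraries can give). That excess rested much on mt-Nd6, without which the minus strand was 2.2, 4.43 and 2.82 times as high per kb. The latter ratio sets 8 tRNA genes, of 549 bases in all, against 28 mRNA, rRNA and tRNA genes. Among those 28 are the 10 genes from mt-Td to mt-Nd4l, which had 1, 0 and 1 counts over 3269 bases. By summed counts, the log2 ratio of minus to plus strand was 0.72 ± 0.53 with all genes and -3.12 ± 0.51 without mt-Nd6.

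Of the 37 genes 21 were above 3 counts in every library, where 23.5% of all genes were. A further 11, all on the plus strand, had 0 counts in every library.

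**Figure D1:**
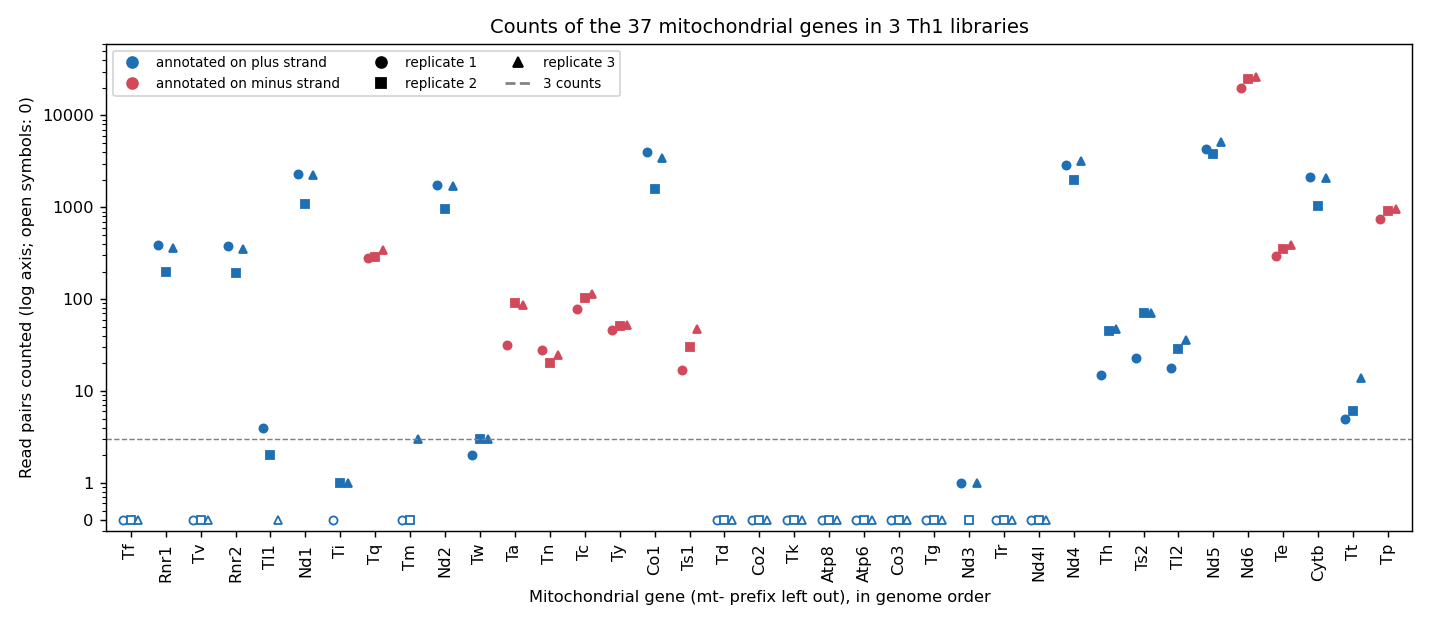
Read pairs counted for each of the 37 mitochondrial genes, in genome order on the x axis and on a log axis, with 1 symbol per library, open symbols for 0 counts, and colour for the annotated strand. The minus-strand gene mt-Nd6 is the highest at 20093 to 26553 counts, every minus-strand tRNA gene is above the dashed line at 3 counts, and plus-strand genes from mt-Td to mt-Nd4l lie at 0 or 1.

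On 20 nuclear chromosomes the minus-strand share of counts had means between 38.7% and 66.9%, and the widest range between libraries was 5.2 percentage points, on the X chromosome. On the mitochondrial genome the share ran from 54.3% to 71.1%, with an SD of 8.51 percentage points. These values are a description, since 1 chromosome is set beside 20 others.

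Among the mRNA genes, mt-Nd6 (ENSMUSG00000064368, mm10 chromosome M, 13552 to 14070, minus strand) stood far above the others in pairs counted for the annotated strand. It encodes a membrane subunit of complex I. It had 20093, 25190 and 26553 counts, or 5654, 8552 and 7880 CPM. Replicate 1 was the lowest on both scales. The gene alone held 50.5%, 66.2% and 56.1% of the mitochondrial counts. Per kb it was 15.1, 23.3 and 18.2 times as high as the next mRNA gene, which was mt-Co1 in replicate 1 and mt-Nd5 in replicates 2 and 3 (exact two-sided sign-flip permutation test, p = 0.25, the smallest possible).

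The other complex I mRNA genes fell into a counted and an uncounted group. The gene mt-Nd5 had 4275, 3806 and 5116 counts. The gene mt-Nd4 had 2906, 1992 and 3232 counts. Both encode proton-pumping subunits of the membrane arm. The gene mt-Nd1 had 2311, 1078 and 2249 counts, and mt-Nd2 had 1751, 966 and 1720. In both, replicate 2 was the lowest library and replicates 1 and 3 were close to each other. In contrast, mt-Nd3 had 1, 0 and 1 counts and mt-Nd4l had 0 in each library.

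Complexes III, IV and V showed the same division. The gene mt-Cytb, which encodes cytochrome b of complex III, had 2151, 1028 and 2093 counts. Of the cytochrome c oxidase genes, mt-Co1, which encodes the catalytic subunit of complex IV, had 3962, 1565 and 3431 counts, while mt-Co2 and mt-Co3 had 0 in each library. The ATP synthase genes mt-Atp6 and mt-Atp8 overlap on the plus strand, where a pair that touches both is counted for neither, and also had 0 in each library. Per kb, the 6 counted plus-strand mRNA genes had means between 1425 ± 428 for mt-Nd2 and 2412 ± 364 for mt-Nd5 (SD, n = 3). The highest of them was mt-Co1 in replicate 1 and mt-Nd5 in the other libraries.

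The rRNA genes were counted less than the mRNA genes beside them. The gene mt-Rnr1, for the small ribosomal subunit, had 389, 196 and 357 counts, and mt-Rnr2, for the large one, had 377, 194 and 353. Per base, mt-Nd1 and mt-Nd2 together were 6.74, 6.66 and 7.11 times as high as the rRNA genes (exact two-sided sign-flip permutation test, p = 0.25, the smallest possible). This ratio was 6.84 ± 0.237 (SD, n = 3), while the counts themselves were lower in replicate 2. The assay title says total RNA, whereas the linked library protocol is a polyA+ one. The part of that selection in the low rRNA counts was not tested.

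The tRNA genes also differed by strand. All 8 on the minus strand were above 3 counts in every library, against 4 of 14 on the plus strand. The minus-strand tRNA genes summed to 1526, 1858 and 2014 counts and the plus-strand ones to 67, 157 and 175, which per base was 39.50, 20.52 and 19.96 times as high on the minus strand (exact two-sided sign-flip permutation test, p = 0.25, the smallest possible). The proline tRNA gene mt-Tp led with 747, 920 and 951 counts, whereas its plus-strand neighbour mt-Tt had 5, 6 and 14.

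On the minus strand mt-Te had 299, 356 and 390 counts and mt-Tq had 278, 287 and 346. The gene mt-Tc, for the cysteine tRNA, had 79, 103 and 115 counts. The alanine tRNA gene mt-Ta had 32, 91 and 87, so that replicate 1 lay well below the other libraries. The neighbours mt-Tn (asparagine) and mt-Ty (tyrosine) had 28, 20 and 25, and 46, 51 and 53 counts. The serine tRNA gene mt-Ts1 was the lowest of the strand in replicate 1, with 17, 30 and 47.

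On the plus strand, 3 adjacent tRNA genes between mt-Nd4 and mt-Nd5 held most of the tRNA counts. They were mt-Th (histidine) with 15, 45 and 48 counts, mt-Ts2 (serine) with 23, 71 and 70, and mt-Tl2 (leucine) with 18, 29 and 36. Replicate 1 was the lowest for each. The other 11 plus-strand tRNA genes summed to 11, 12 and 21 counts, of which mt-Tt held 5, 6 and 14. The leucine tRNA gene mt-Tl1 had 4, 2 and 0 counts, and mt-Ti, mt-Tm and mt-Tw had 3 or fewer in each library. The remaining 6, mt-Tf, mt-Tv, mt-Td, mt-Tk, mt-Tg and mt-Tr, had 0 counts in all 3 libraries.

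The genes also differ in their distance to neighbours. Under the counting options in the file headers, a pair that touches exons of more than 1 gene on the counted strand is given to no gene. All 14 plus-strand tRNA genes lie within 2 bases of another plus-strand gene. On the minus strand 5 of 8 do, and mt-Tq, mt-Ts1 and mt-Tp lie over 1000 bases from any other minus-strand gene. A pair longer than a tRNA can therefore be counted for those 3 but not, in general, for a plus-strand tRNA gene. The tRNA values are uncertain for this reason, and the part of this rule in the difference between strands was not tested. Of the 5 minus-strand tRNA genes with a near neighbour, mt-Te had 299 to 390 counts. The genes mt-Ta, mt-Tn, mt-Tc and mt-Ty had 20 to 115. On the plus strand mt-Th, mt-Ts2 and mt-Tl2 had 15 to 71, and the other 11 tRNA genes had 14 or fewer. Of the 3 far genes, mt-Tp had 747 to 951 counts, mt-Tq 278 to 346 and mt-Ts1 17 to 47.

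The 10 genes from mt-Td to mt-Nd4l, an unbroken run on the plus strand, had 2 counts in all, both on mt-Nd3. The run holds 6 mRNA and 4 tRNA genes, and it lies inside a stretch that is copied in the nuclear genome. On chromosome 1 (mm10, 24611535 to 24616197, minus strand) 7 annotated unprocessed pseudogenes follow the order of chromosome M, with an offset that was constant to 1 base. Placed on chromosome M by a single offset, the ends of this span fall at 6381, inside mt-Co1, and 11043, inside mt-Nd4. The alignment of the mt-Co1 copy (Gm29216) begins at 6390. The copies of mt-Co2 (Gm28661), mt-Atp6 (Gm10925), mt-Co3 (Gm28437), mt-Nd4l (Gm10222) and the first 876 bases of mt-Nd4 (Gm28439) had 0 mismatches. The counting command has no option to count pairs aligned to several places. Read length is unknown here, and the part of the copy in the missing counts was not tested.

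**Figure D2:**
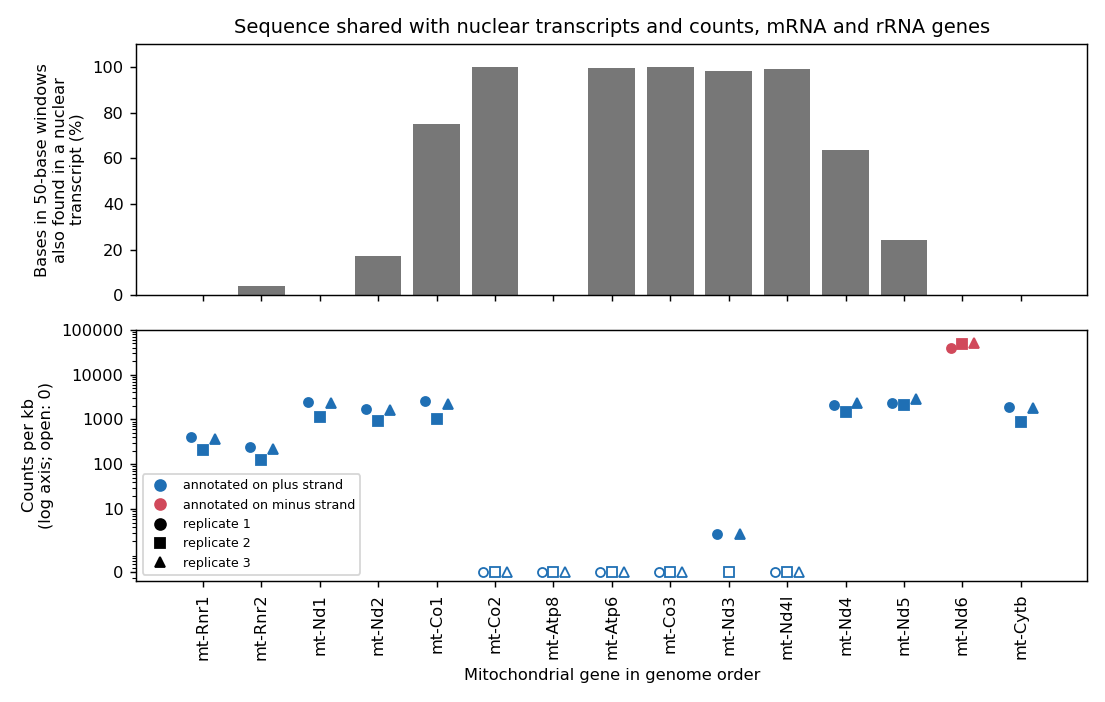
Upper panel, percent of the bases of each mitochondrial mRNA and rRNA gene that lie in windows of 50 bases found exactly in an annotated nuclear transcript; lower panel, counts per kb in each library on a log axis, with open symbols for 0 counts. The genes mt-Co2, mt-Atp6, mt-Co3, mt-Nd3 and mt-Nd4l share at least 98.3% of their bases and have at most 2.87 counts per kb, and mt-Atp8, whose copied stretch carries no annotated transcript, also has 0.

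Windows of 50 bases measured how far each gene is shared. Exact matches in annotated nuclear transcripts covered all of mt-Co2, 99.6% of mt-Atp6, 99.9% of mt-Co3, 98.3% of mt-Nd3 and 99.0% of mt-Nd4l. They covered 74.9% of mt-Co1, 63.6% of mt-Nd4, 24.3% of mt-Nd5, 17.2% of mt-Nd2 and 4.1% of mt-Rnr2, and none of mt-Nd1, mt-Cytb, mt-Nd6 or mt-Rnr1. Windows of 100 bases gave 48.1% for mt-Co1, 63.6% for mt-Nd4, 12.4% for mt-Nd2 and 0% for mt-Nd5 and mt-Rnr2. They gave 98.3% or more for mt-Co2, mt-Atp6, mt-Co3, mt-Nd3 and mt-Nd4l. The genes mt-Co1 and mt-Nd4 were thus counted although they are partly copied. Dividing all counts of each gene by only its bases outside shared windows gave 10211, 4034 and 8843 per kb, and 5789, 3968 and 6438. On this scale mt-Nd6 was 7.2 ± 4.3 times the next mRNA gene. The scale takes no count to come from shared windows, which was not tested. The other genes inside the copied stretch had no shared window in an annotated nuclear transcript. These are mt-Atp8, the 4 plus-strand tRNA genes and the minus-strand mt-Ts1, of which only mt-Ts1 had counts.

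The nuclear copy of mt-Nd3 had counts where mt-Nd3 itself had almost none. Gm28438 (chromosome 1, 24612775 to 24613119) had 239, 201 and 247 counts. The other 6 copies on this chromosome had 8 counts or fewer in each library, with Gm10222 at 0, 2 and 8. Gm28438 differs from the reference mt-Nd3 at a single base of 345 aligned, T3C, counted from 1 at the 5′ end of mt-Nd3. The first 60 bases of both are shown with the differing base in capitals (chrM:9459-9518, plus, and chr1:24613060-24613119, minus).
mt-Nd3 start: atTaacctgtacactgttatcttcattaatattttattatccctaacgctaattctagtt
Gm28438 start: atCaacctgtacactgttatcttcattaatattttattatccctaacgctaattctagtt

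The reference sequence is that of strain C57BL/6J, and the cells are labelled C57BL/6NJ. Which base their mitochondrial genomes carry at this position was not tested. The counts of Gm28438 are uncertain as a measure of either gene. Less similar copies compared on other chromosomes had 2 counts or fewer in each library.

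The libraries were then compared gene by gene with a chi-square test of the 3 counts against Poisson counting error, at library sizes scaled by the trimmed mean of M values (TMM) and with Benjamini-Hochberg adjustment over 10216 genes that passed the filter on low counts. Of 20 mitochondrial genes tested 18 varied beyond counting error, against 37.8% of all genes tested. The share of genes called also differed with depth. All 7 mitochondrial genes with a mean of 1000 counts or more passed, where 95.8% of all such genes did. Of the 13 between 10 and 1000 counts 11 passed, against 33.9% of all such genes. The 2 that did not pass were mt-Tn (chi-square test with Benjamini-Hochberg adjustment, adjusted p = 0.972) and mt-Ty (adjusted p = 0.0858).

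Without replicate 1 the number fell to 10, against 25.4% of all genes tested, and without replicate 2 it was 15, against 9.03%. Replicate 1 alone moved the number by more than 1.5 times. The remaining 17 mitochondrial genes were too low to test, and nothing can be said of their variation.

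The strands moved apart between libraries. On TMM-scaled log2 CPM, replicate 1 was the lowest library for all 9 minus-strand genes and replicate 2 was the highest for 8 of them, with median deviations from the gene's own mean of -0.47, 0.39 and 0.09. Of the 8 plus-strand mRNA and rRNA genes tested, 6 were lowest in replicate 2, with median deviations of 0.10, -0.27 and 0.20. Over all genes tested 47.3% were lowest in replicate 2 and 34.3% in replicate 1. With total counts as library size, 8 of the 9 minus-strand genes were lowest in replicate 1 and 7 of the 8 plus-strand mRNA and rRNA genes in replicate 2. With TMM on isolated nuclear genes alone, those numbers were 9 and 5, and with summed mitochondrial counts as library size 7 and 8. Which library was highest also depended on scaling. By total counts it was replicate 3 for mt-Tq (78.2, 97.4 and 103 CPM) and mt-Ts1 (4.78, 10.2 and 13.9 CPM). For mt-Tn it was replicate 1 (7.88, 6.79 and 7.42 CPM).

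**Figure D3:**
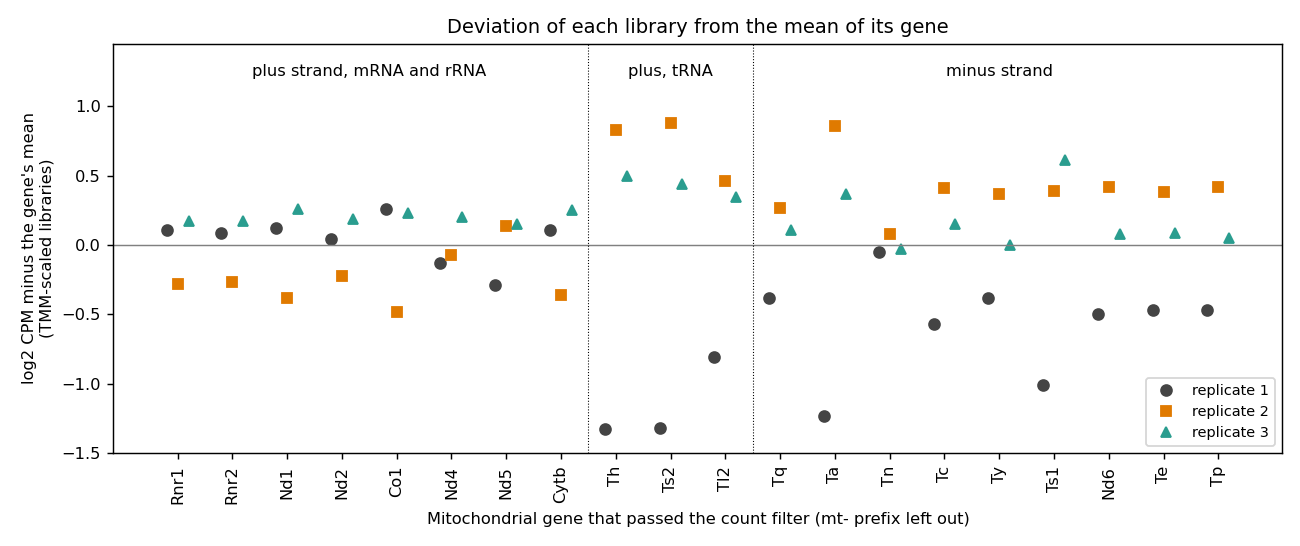
Log2 CPM of each library minus the mean of its gene over the 3 libraries, at TMM-scaled library sizes, for the 20 mitochondrial genes that passed the count filter. Replicate 1 lies below the gene mean for all 9 minus-strand genes and for the 3 plus-strand tRNA genes, whereas replicate 2 is the lowest library for 6 of the 8 plus-strand mRNA and rRNA genes.

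Among the plus-strand mRNA genes mt-Co1 moved over the widest range. Its deviations were 0.26, -0.48 and 0.23 (chi-square test with Benjamini-Hochberg adjustment, adjusted p = 6.6e-72), and those of mt-Nd1 were 0.12, -0.38 and 0.26 (adjusted p = 1.7e-31). The deviations of mt-Nd6 were opposite in replicates 1 and 2, at -0.50, 0.42 and 0.08. On the minus strand mt-Tp and mt-Te nearly equalled it, with -0.47, 0.42 and 0.05, and -0.47, 0.38 and 0.09. The share of mt-Nd6 within the minus strand therefore hardly moved, at 92.9%, 93.1% and 92.9%.

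On TMM-scaled values some plus-strand genes did not follow their strand. The neighbours mt-Nd4 and mt-Nd5 were the 2 of 8 that were lowest in replicate 1, with deviations of -0.13, -0.07 and 0.20, and -0.29, 0.14 and 0.15. This depended on the scaling. By total counts mt-Nd4 was lowest in replicate 2, at 818, 676 and 959 CPM. With summed mitochondrial counts as library size, all 8 were lowest in replicate 2. The ratio of mt-Nd5 to mt-Nd1 counts was 1.85, 3.53 and 2.27. At TMM scaling, the 3 tRNA genes between mt-Nd4 and mt-Nd5 were lowest in replicate 1 and highest in replicate 2, as were 8 of the 9 minus-strand genes. By total counts mt-Tl2 was highest in replicate 3, at 5.07, 9.85 and 10.7 CPM. The gene mt-Ts2 deviated by -1.32, 0.88 and 0.44 (chi-square test with Benjamini-Hochberg adjustment, adjusted p = 3.08e-10) and mt-Th by -1.33, 0.83 and 0.50 (adjusted p = 1.49e-06). The third, mt-Tl2, deviated by -0.81, 0.46 and 0.35 (adjusted p = 0.0146 by the same chi-square test with Benjamini-Hochberg adjustment). On the minus strand mt-Ta and mt-Ts1 had deviations of similar size, at -1.23, 0.86 and 0.37, and -1.01, 0.39 and 0.61. The 3 plus-strand tRNA genes mt-Th, mt-Ts2 and mt-Tl2 were lowest in replicate 1 under each of the 5 scalings tried.

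**Figure D4:**
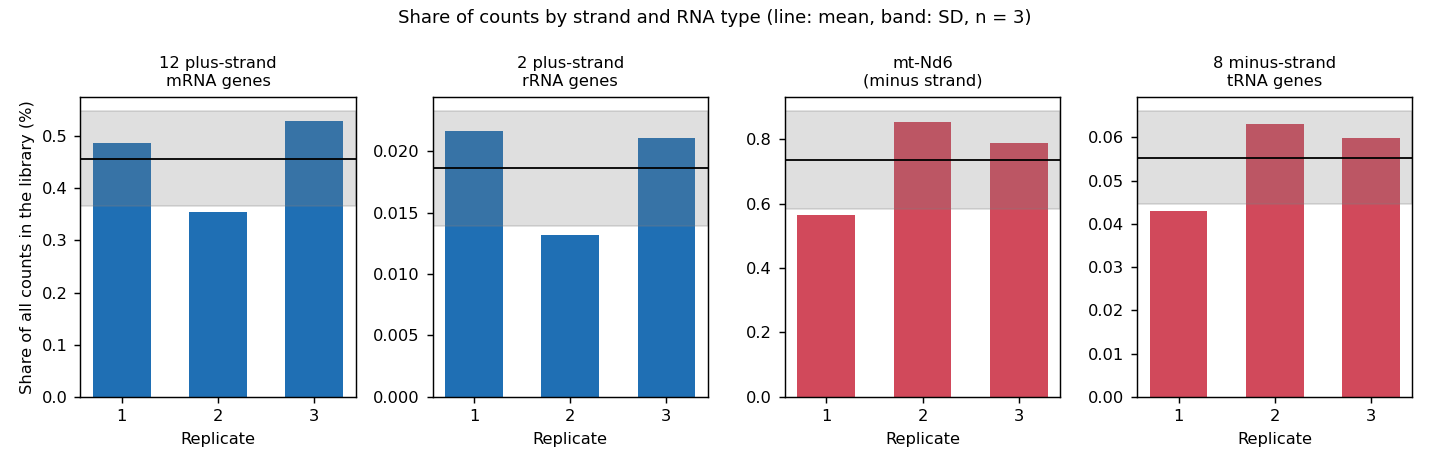
Share of all counts in each library, in percent, held by the plus-strand mRNA and rRNA genes, mt-Nd6 and the minus-strand tRNA genes, with a separate axis from 0 for each panel; the line is the mean and the band the SD (n = 3). Replicate 2 is lowest in both plus-strand panels (0.354% and 0.0132%) and highest in both minus-strand panels (0.855% and 0.0631%).

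Nuclear genes shifted between the same libraries by their position. Genes whose exons overlap an exon on the opposite strand held 67.2%, 76.4% and 69.2% of all counts, and genes with no opposite-strand gene within 5000 bases (isolated genes) held 14.1%, 9.52% and 12.9%. Among tested isolated genes 69.7% were lowest in replicate 2, and among tested overlapped genes 54.1% were lowest in replicate 1. The plus-strand mitochondrial share of counts, at 0.512%, 0.373% and 0.556%, was lowest in the library where the isolated share was lowest. The minus-strand share, at 0.608%, 0.918% and 0.848%, was highest where the overlapped share was highest. The part of this shift in the mitochondrial differences was not tested.

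The nuclear genes that replicate, transcribe and process the mitochondrial genome were taken as a list of 54. All 54 had more than 3 counts in every library, against 23.5% of all 50600 genes of any type. Their median was 21.3 counts per kb, against 0.763 for nuclear protein-coding genes. Overlapped genes made up 23 of the 54. Of 50 tested 19 varied between libraries, a share near the background of 37.8%. By role these were 4 of 12 for replication and the nucleoid, 2 of 6 for transcription, 9 of 20 for processing, polyadenylation and decay, and 4 of 12 for modification of tRNA and rRNA.

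The highest members per kb in each role were all overlapped genes, for which the count cannot be assigned to that gene alone. For replication they were Mgme1, a mitochondrial exonuclease, with 897, 1092 and 1234 counts, and Polg, the mitochondrial DNA polymerase, with 1176, 1126 and 1146. For transcription Mterf2 had 38, 49 and 43 counts and Mterf3 had 72, 54 and 88, both of the termination factor family. For processing Slirp, which stabilises mitochondrial mRNAs with Lrpprc, had 4251, 4537 and 4572 counts, and Ptcd1 had 2111, 2154 and 2027. For modification Trnt1, which adds the CCA end to tRNAs, had 821, 653 and 762 counts and Nsun2, an RNA methyltransferase, had 1187, 680 and 878.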

How the data were processed

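Raw counts, 1 per gene and library, were deposited. Per the file headers, featureCounts 1.4.6-p4 assigned pairs with both ends aligned to GENCODE M13 exons by gene identifier, with strand option 1. The labels name mm10. No aligner version was given in the sources used here.

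The members and lists were chosen with earlier results of these data known. Symbols and sequences came from GENCODE M21 (same build), which matched 50376 of 50600 identifiers. All 37 mitochondrial sequences had the length given in the files. Nuclear copies were sought as exact windows of 50 bases, on both strands, in annotated transcripts, since no genome sequence was used here.

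With 1 group no contrast could be fitted. Ratios between strands or genes were taken within libraries, with an exact sign-flip test. Variation between libraries was tested by a chi-square test (2 degrees of freedom) on genes passing edgeR's filterByExpr, at a Benjamini-Hochberg adjusted p of 0.05. It was tested on simulated counts of 10216 genes, where it recovered 20.5% of 200 genes changed 1.25-fold, 48.5% of 200 changed 1.5-fold and 85.5% of 200 changed 2-fold. Those counts had Poisson error only. The common coefficient of variation between libraries was 17.9%. Deviations used a prior count of 0.5. Values in every library are given for each mRNA and rRNA gene, for tRNA genes above 3 counts in any library, for nuclear copies above 3 counts, and for the 2 highest nuclear list members per role. Tools were R 4.3.3, edgeR 4.0.16, DESeq2 1.42.0, Python 3.11.15, scipy 1.17.1 and Biopython 1.88. Alternatives were scaling, filters, gene subsets and leaving out each library.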

Additional observations from a re-analysis of the deposited data

How the results depend on the processing

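The log2 ratio of minus-strand to plus-strand counts was 0.72. It reversed to -3.12 without mt-Nd6, and to -1.12 without both mt-Nd6 and the genes that share a 50-base window with a nuclear transcript, since mt-Nd6 holds most of the minus-strand counts. It was 4.47 per kb of exon, 3.87 for tRNA genes alone and 2.72 without the genes that share windows. The alternatives that use shared windows or isolated genes were chosen after seeing the data. Leaving out a library gave 0.43 to 0.95. The mitochondrial share of 1.27% became 1.85% of protein-coding and mitochondrial counts, 4.71% of TPM and 0.535% without mt-Nd6, and 1.21% to 1.35% without a library. The excess of mt-Nd6 over the next mRNA gene, 18.9 per kb, was 5.5 in counts and 71.8 against the median of the other 12 mRNA genes. It was 7.2 with all counts divided by the bases outside shared windows, and 16.7 to 20.8 without a library. The level of mt-Nd6, 7362 CPM, was 25168 in TPM. The number of genes above 3 counts in every library, 21, was 20 to 22 over its alternatives. The number that varied, 18, was 15 to 18 under the other scalings and filters and 10 to 18 without a library. The planned removal of genes by a genome search was not run, because only annotated transcripts were searched. No paired analysis was possible because there is 1 group. With 3 libraries the sign-flip test cannot pass 0.05, and 3 counts or fewer cannot be told from 0.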
